A study of Mus musculus with 6 samples.

Results

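Type I interferons are secreted proteins that cells release on sensing viral nucleic acid and that act on the same and neighbouring cells. They bind a receptor made of IFNAR1 and IFNAR2, which signals through the kinases JAK1 and TYK2 to transcription factors that include STAT2 and IRF9. The complex they form binds the interferon-stimulated response element and induces the interferon-stimulated genes, many of which code for antiviral proteins. Macrophages keep a low tonic interferon response without infection, and interferon is a known brake on osteoclast formation.

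The genes described here are 45 type I interferon-stimulated genes and components of the response. They comprise both receptor chains, 4 transcription factors and 39 effectors, chosen by symbol from a fixed list that leaves out the guanylate-binding and antigen-presentation genes. All 45 had a row among the 23504 genes of the table, and all 45 passed the filter of a mean of at least 1 FPKM (fragments normalized to the length of the gene and to the fragments of the library) that left 10965 genes to test.

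The data were 6 RNA-seq libraries of bone marrow–derived macrophages (BMMs) after 3 days, of which 3 had DASA-58 and 3 had DMSO, its solvent. DASA-58 is a small-molecule activator of pyruvate kinase M2 (PKM2), an enzyme of glycolysis. The cells of both groups came from the bone marrow of male C57BL/6 mice of 6 to 8 weeks, with no altered allele named, and were grown with M-CSF, the growth factor of macrophages. RANKL, the cytokine that turns BMMs into osteoclasts, was given to the DASA-58 group. For the DMSO group the descriptions of the experiment differ. The study's results text describes induction with RANKL for both treatments, while its methods name only DMSO for the control. Osteoclast markers were present with DMSO, where their list summed to 778 to 833 FPKM, beside 449 to 467 FPKM with DASA-58. The methods name the compound DASA-48 for this experiment, the labels name it DASA-58, and its concentration in the RNA-seq experiment is not given in the sources used here. Neither the number of mice nor whether the replicates were separate cultures is stated, so p-values measure the spread between these libraries, which may be technical.

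Depth recovered from the FPKM values was 18209396 to 18853041 fragments with DMSO and 18191560 to 18968556 fragments with DASA-58, so the groups were sequenced about equally deeply. All 10 macrophage markers were above the filter. Among them was Csf1r, the receptor of M-CSF, at 319 to 325 FPKM with DMSO and 325 to 346 FPKM with DASA-58. The macrophage list summed to 16722 to 17578 FPKM with DMSO and 17643 to 19954 FPKM with DASA-58, most of it from Lyz2, at 14701 to 15513 and 15447 to 17767 FPKM. Of 10 osteoclast markers, 9 passed the same filter, so passing it does not tell macrophages from cells becoming osteoclasts.

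Interferon reaches its target genes through the response element in their promoters. A letter match to the core of the response element was searched in 36 members found in the RefSeq promoter table (GRCm38.p6), in the window from 250 bases before to 50 bases after the transcription start. The match was a pair of GAAA half-sites in the same direction with 2 bases between them, on either strand. It was present in 14 of the 36 members (38.9%), in 329 of the 8123 tested genes with a promoter (4.05%) and in 1131 of all 32851 windows (3.44%). Below are the 160 bases before the start of 7 members, 5′ to 3′ on the strand of the gene, with each match in capitals (adjoining or overlapping matches run together, and TTTC marks the half-site on the other strand). Isg15, Ifit1, Ifit3 and Oas1a were lower with DASA-58, Bst2 and Ddx60 were not past the threshold, and Ube2l6, the member with the largest change, had no match in this window.
Isg15 (chr4:156200819-156200978, minus strand): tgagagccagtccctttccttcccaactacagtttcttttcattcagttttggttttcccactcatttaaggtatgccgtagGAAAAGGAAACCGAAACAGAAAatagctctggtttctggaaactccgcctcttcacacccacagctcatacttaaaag
Ifit1 (chr19:34640729-34640888, plus strand): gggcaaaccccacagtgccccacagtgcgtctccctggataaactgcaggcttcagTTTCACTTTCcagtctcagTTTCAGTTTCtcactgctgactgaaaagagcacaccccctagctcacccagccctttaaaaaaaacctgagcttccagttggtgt
Ifit3 (chr19:34583369-34583528, plus strand): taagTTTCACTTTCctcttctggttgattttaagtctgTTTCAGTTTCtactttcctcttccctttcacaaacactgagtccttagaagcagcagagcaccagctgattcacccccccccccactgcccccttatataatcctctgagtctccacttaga
Oas1a (chr5:120907526-120907685, minus strand): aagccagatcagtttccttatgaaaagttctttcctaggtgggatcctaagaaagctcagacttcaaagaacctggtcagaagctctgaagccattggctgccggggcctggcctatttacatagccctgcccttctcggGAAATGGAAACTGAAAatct
Bst2 (chr8:71537473-71537632, minus strand): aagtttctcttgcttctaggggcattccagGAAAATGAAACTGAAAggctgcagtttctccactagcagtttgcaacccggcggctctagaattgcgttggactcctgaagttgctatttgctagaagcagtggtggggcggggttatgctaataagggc
Ddx60 (chr8:61927927-61928086, plus strand): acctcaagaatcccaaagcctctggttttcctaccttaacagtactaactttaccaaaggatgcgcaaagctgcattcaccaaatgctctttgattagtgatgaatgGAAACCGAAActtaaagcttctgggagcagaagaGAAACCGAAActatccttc
Ube2l6 (chr2:84798668-84798827, plus strand): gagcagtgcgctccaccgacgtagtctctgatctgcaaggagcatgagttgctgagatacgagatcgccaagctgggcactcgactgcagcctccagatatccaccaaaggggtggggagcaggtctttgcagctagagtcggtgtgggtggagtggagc

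Members that were lower with DASA-58 held a match in 8 of 20 promoters (40.0%), and those not past the threshold in 6 of 16 (37.5%). In Isg15, 3 matches began 78, 72 and 66 bases before the start. In Ifit1 they began 104 and 85 bases before it and in Ifit3 156 and 122 bases before it, in both genes on the other strand. In Oas1a they began 20 and 14 bases before it. A letter match is a description of the sequence, and no match says only that these letters are not in this window.

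Of the 45 members, 26 were lower with DASA-58 and 0 were higher at an adjusted p under 0.05 (limma on log2(FPKM + 1), Benjamini-Hochberg adjustment over all 10965 genes). Over all genes tested, 7.28% were lower and 4.24% were higher by the same rule. At an unadjusted p under 0.05, 34 members were lower and 0 were higher, where 18.0% of all genes were lower and 9.83% were higher. With voom weights on recovered fragments 34 of the 42 members with fragments were lower and 0 were higher, and of the 9573 genes in that fit 14.6% were lower and 5.85% were higher. The decreases were small. The 26 lower members stood at 68.4% to 89.5% of the DMSO level, with log2 fold changes of -0.54 to -0.15, and none of the 45 passed a log2 fold change of 1 in size.

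Direction was nearly uniform. The log2 fold change was below 0 in 44 of the 45 members, with Ifnar2 as the exception (and Ifnar1 as another under 3 scalings given below), and its median over the members was -0.21 beside -0.03 over all genes tested, of which 59.8% were below 0. In 34 members every DASA-58 library lay below every DMSO library, and in 0 members every DASA-58 library lay above. Over all genes tested these shares were 21.6% below and 11.8% above. Since the members were picked with earlier results of these data known, no test of the list as a whole is given.

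The 6 libraries can be read side by side in the plot of all members by library. Relative to the DMSO mean of each gene, the median member stood at -0.01, -0.04 and 0.04 on the log2 scale in DMSO replicates 1, 2 and 3, and at -0.22, -0.21 and -0.15 in DASA-58 replicates 1, 2 and 3. Thus all 3 DASA-58 libraries were low, and replicate 3 was the least so. In DASA-58 replicates 1, 2 and 3, 45, 42 and 41 of the 45 members were below their DMSO mean. In DMSO replicates 1, 2 and 3 these counts were 27, 33 and 8. The median over all genes tested was 0.004, -0.007 and 0.003 in DMSO replicates 1, 2 and 3. It was -0.022, -0.022 and -0.033 in DASA-58 replicates 1, 2 and 3.

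**Figure D1:**
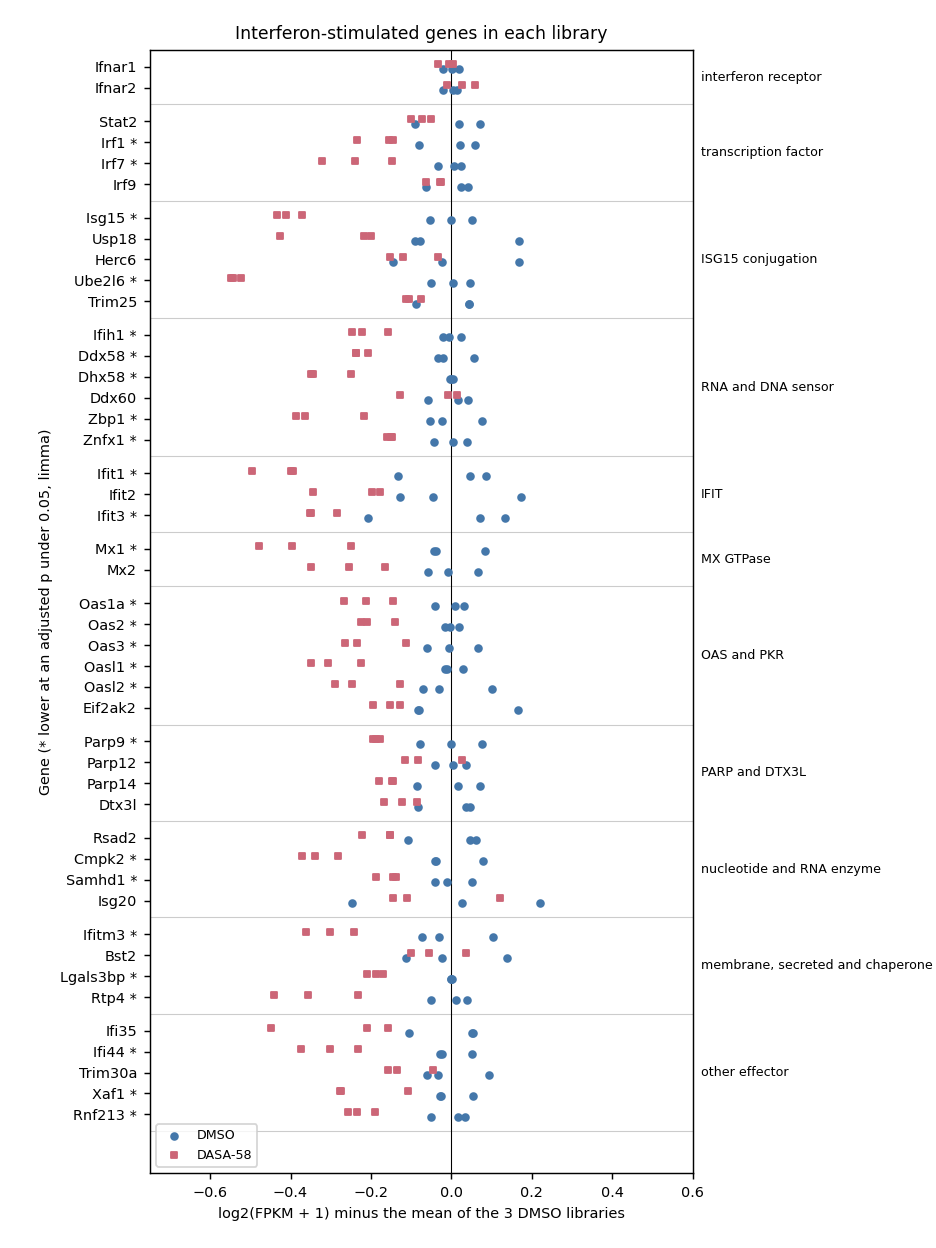
Each row is a gene, grouped by role, and each point is a library, plotted as log2(FPKM + 1) minus the mean of the 3 DMSO libraries (blue circles, DMSO; red squares, DASA-58; asterisk, adjusted p under 0.05 in limma). In 34 of the 45 rows all 3 red squares lie to the left of all 3 blue circles, and in the receptor rows at the top they are mixed.

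The number of lower members depended on single libraries. It was 16, 22 and 16 without DMSO replicates 1, 2 and 3, and 15, 14 and 19 without DASA-58 replicates 1, 2 and 3. Lower calls became fewer over all genes too, from 7.28% of the genes tested to 3.52%, 5.05% and 5.51% without these DMSO replicates and 3.81%, 4.24% and 3.61% without these DASA-58 replicates. The log2 fold changes of the 26 lower members stayed between -0.56 and -0.13 with any library left out, and 13 of the 26 were called with any library left out. These 13 were Isg15, Ube2l6, Ddx58, Dhx58, Ifit1, Oas1a, Oas2, Oasl1, Cmpk2, Ifitm3, Lgals3bp, Rtp4 and Rnf213. Of the other 13, Irf7 lost the call without DASA-58 replicate 2 and Mx1 without DMSO replicate 1 or DASA-58 replicate 1. Zbp1 lost it without DMSO replicate 1 or DASA-58 replicates 1 or 2, and Irf1, Ifih1, Znfx1, Ifit3, Oas3, Oasl2, Parp9, Samhd1, Ifi44 and Xaf1 each lost it with 5 or 6 of the 6 libraries left out in turn. Without DMSO replicate 2, Trim25, Parp14 and Rsad2 passed the threshold as lower. Scaling between libraries mattered as well. Centring the libraries on their median gave 19 lower and 0 higher members, while the balance over all genes turned from 798 lower and 465 higher to 499 lower and 600 higher.

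The receptor was measured first, as the entry point of the pathway. IFNAR1 and IFNAR2 are the receptor chains that bind interferon together. Ifnar1 was 41.9, 40.6 and 41.3 FPKM in DMSO replicates 1, 2 and 3 and 40.3, 41.4 and 41.1 FPKM in DASA-58 replicates 1, 2 and 3. Ifnar2 was 28.1, 28.6 and 28.8 FPKM with DMSO and 28.3, 29.8 and 29.1 FPKM with DASA-58. The groups overlapped for both chains. The 95% interval of the log2 fold change was -0.08 to 0.05 for Ifnar1 and -0.05 to 0.10 for Ifnar2, so a change in the RNA of either chain of the size seen in Isg15 lies outside these intervals. Under quantile normalization, median centring and a trimmed mean of log ratios the Ifnar1 value turned positive, at 0.012, 0.017 and 0.015.

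Among the 4 transcription factors, Irf1 and Irf7 were lower with DASA-58 and Stat2 and Irf9 were not past the threshold. IRF7 is the factor that amplifies interferon production and is itself interferon-induced. Irf7 was 87.2, 90.7 and 89.6 FPKM with DMSO (89.2 ± 1.84, mean ± SD, n = 3) and 71.2, 75.4 and 80.4 FPKM with DASA-58 (75.7 ± 4.62). All DASA-58 libraries were below all DMSO libraries, with a log2 fold change of -0.24 (SE 0.045, limma adjusted p = 0.015). Irf1, an interferon-induced factor, was 17.0, 18.2 and 18.8 FPKM with DMSO and 16.04, 15.1 and 16.2 FPKM with DASA-58. Its libraries did not overlap either, and its change was close to the threshold (log2 fold change -0.18, SE 0.047, limma adjusted p = 0.048).

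STAT2 and IRF9 are the parts of the interferon-activated complex that are particular to the type I and III responses. Stat2 was 16.8, 15.5 and 17.4 FPKM with DMSO and 15.9, 15.4 and 15.7 FPKM with DASA-58 (log2 fold change -0.07, 95% interval -0.18 to 0.03). Irf9 was 16.3, 17.6 and 17.3 FPKM with DMSO and 16.7, 16.3 and 16.7 FPKM with DASA-58 (log2 fold change -0.04, 95% interval -0.13 to 0.05). For both genes the groups overlapped.

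ISG15 is a ubiquitin-like protein that is attached to other proteins after interferon. In this group of 5 genes, 2 were lower with DASA-58, Ube2l6 and Isg15. Ube2l6, the conjugating enzyme for ISG15, was 61.8, 64.2 and 66.1 FPKM with DMSO and 43.7, 43.5 and 44.3 FPKM with DASA-58. The means were 64.0 ± 2.18 and 43.8 ± 0.409 FPKM (SD, n = 3), so that DASA-58 stood at 68.4% of DMSO. This was the largest change of the 45 members (log2 fold change -0.54, SE 0.032, limma adjusted p = 9.8e-05).

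Isg15 itself was 39.0, 36.2 and 37.6 FPKM with DMSO and 27.5, 28.0 and 28.8 FPKM with DASA-58. Here too the groups were well apart, at 37.6 ± 1.40 and 28.1 ± 0.639 FPKM (SD, n = 3), with a log2 fold change of -0.41 (SE 0.037, limma adjusted p = 0.00072). Usp18, the protease that removes ISG15 and also damps signalling at the receptor, was 9.83, 9.73 and 11.8 FPKM with DMSO and 7.50, 8.95 and 8.82 FPKM with DASA-58. Its groups did not overlap, but the change did not pass the threshold (log2 fold change -0.28, SE 0.087, limma adjusted p = 0.078). Herc6, the main ISG15 ligase of mice, had a low level of 1.96, 1.72 and 2.38 FPKM with DMSO and 1.77, 1.70 and 1.94 FPKM with DASA-58, with overlapping groups (limma adjusted p = 0.53). Trim25, a ubiquitin ligase that acts on RIG-I, overlapped as well, at 35.0, 31.9 and 35.0 FPKM with DMSO and 31.3, 32.1 and 31.4 FPKM with DASA-58 (limma adjusted p = 0.18).

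**Figure D2:**
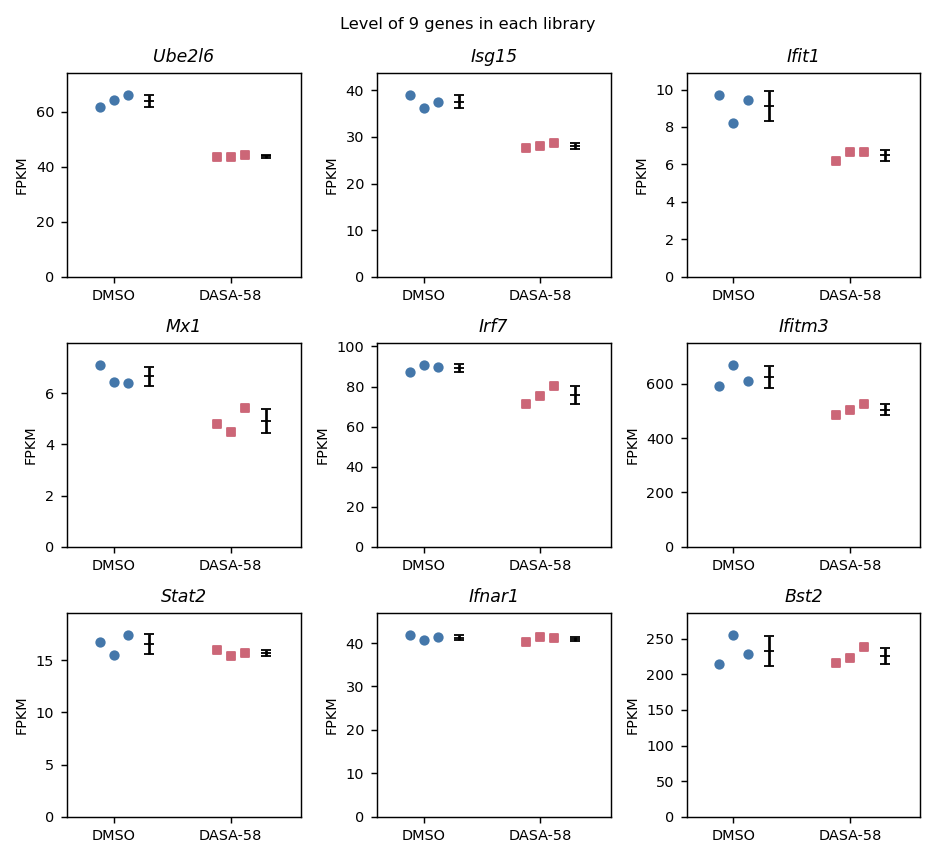
FPKM of 9 members in each library (blue circles, DMSO; red squares, DASA-58), with the mean and SD of the 3 libraries beside them in black and each axis starting at 0. The groups are apart for Ube2l6, Isg15, Ifit1, Mx1, Irf7 and Ifitm3 and overlap for Stat2, Ifnar1 and Bst2.

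Of 6 sensors of foreign nucleic acid, 5 were lower with DASA-58. The helicases RIG-I, MDA5 and LGP2 detect viral RNA in the cytoplasm. Ddx58, which codes for RIG-I, was 23.4, 23.2 and 24.7 FPKM with DMSO and 19.99, 19.99 and 20.4 FPKM with DASA-58 (log2 fold change -0.23, SE 0.036, limma adjusted p = 0.0072). Ifih1, which codes for MDA5, was 6.98, 7.07 and 7.24 FPKM with DMSO and 6.26, 5.82 and 5.93 FPKM with DASA-58 (log2 fold change -0.21, SE 0.043, limma adjusted p = 0.021). Dhx58, which codes for LGP2, was 14.3, 14.3 and 14.4 FPKM with DMSO and 11.1, 11.02 and 11.9 FPKM with DASA-58 (log2 fold change -0.31, SE 0.040, limma adjusted p = 0.0028). None of the 3 helicase genes thus overlapped between groups, and they stood at 79.1% to 84.8% of the DMSO level.

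Zbp1, the sensor of left-handed nucleic acid that can start necroptosis, had the largest change of the sensors. It was 6.87, 6.19 and 6.35 FPKM with DMSO and 4.71, 4.80 and 5.42 FPKM with DASA-58 (log2 fold change -0.32, SE 0.062, limma adjusted p = 0.016). Znfx1, a helicase-domain protein that binds viral RNA, had the highest level of the group and the smallest of the 5 changes, at 27.8, 26.8 and 28.4 FPKM with DMSO and 24.8, 24.6 and 24.9 FPKM with DASA-58 (log2 fold change -0.15, SE 0.033, limma adjusted p = 0.024). Ddx60, an antiviral helicase, was the exception, since its libraries overlapped at 3.88, 4.15 and 4.24 FPKM with DMSO and 4.06, 3.66 and 4.13 FPKM with DASA-58 (95% interval of the log2 fold change -0.18 to 0.10). The Ddx60 promoter above carries 2 matches.

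IFIT proteins bind viral RNA and block its translation, and their genes lie side by side on chromosome 19. None of the 3 overlapped between groups, with all DASA-58 values under the DMSO values, and 2 passed the threshold. Ifit1 was 9.71, 8.21 and 9.43 FPKM with DMSO and 6.16, 6.69 and 6.65 FPKM with DASA-58, which is 71.3% of DMSO and the second-largest change of the members (log2 fold change -0.43, SE 0.065, limma adjusted p = 0.0061). Ifit3 was 18.5, 15.0 and 19.3 FPKM with DMSO and 14.2, 13.5 and 13.5 FPKM with DASA-58 (log2 fold change -0.33, SE 0.083, limma adjusted p = 0.042). Ifit2 was 8.44, 7.92 and 9.98 FPKM with DMSO and 7.61, 6.68 and 7.49 FPKM with DASA-58 (log2 fold change -0.24, SE 0.083, limma adjusted p = 0.11). In each IFIT gene DMSO replicate 2 was the lowest of the DMSO libraries. Ifit3 has a near-identical copy, Ifit3b, and how counting treated reads that match both is not given. Ifit3b was also lower (log2 fold change -0.30, SE 0.060, limma adjusted p = 0.019).

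MX proteins are GTPases that trap viral particles. Mx1 was 7.10, 6.44 and 6.42 FPKM with DMSO and 4.81, 4.49 and 5.44 FPKM with DASA-58 (log2 fold change -0.37, SE 0.069, limma adjusted p = 0.013). Mx2 was scarce, at 1.81, 1.72 and 1.96 FPKM with DMSO (117 to 129 fragments) and 1.22, 1.52 and 1.37 FPKM with DASA-58 (83 to 100 fragments). Neither gene overlapped between groups, but Mx2 missed the threshold (log2 fold change -0.26, SE 0.078, limma adjusted p = 0.076).

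Oligoadenylate synthetases (OAS) sense double-stranded RNA and make a nucleotide messenger of the antiviral response. All 5 OAS and OAS-like members, which lie on chromosome 5, were lower with DASA-58. Oas1a, the most abundant of them, was 75.2, 79.1 and 77.8 FPKM with DMSO and 64.1, 66.7 and 69.8 FPKM with DASA-58 (log2 fold change -0.21, SE 0.038, limma adjusted p = 0.013). Oas2 was 33.1, 32.9 and 33.7 FPKM with DMSO and 28.3, 28.6 and 30.1 FPKM with DASA-58 (log2 fold change -0.19, SE 0.034, limma adjusted p = 0.011). Oas3 was 20.3, 19.6 and 21.4 FPKM with DMSO and 17.2, 16.8 and 18.8 FPKM with DASA-58 (log2 fold change -0.20, SE 0.051, limma adjusted p = 0.042). The 3 synthetases thus stood at 86.2% to 87.2% of DMSO, with no overlap between groups.

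Oasl1, an OAS-like protein that restrains the translation of Irf7, had the largest change of this group. It was 17.7, 18.3 and 17.8 FPKM with DMSO and 13.8, 15.2 and 14.3 FPKM with DASA-58 (log2 fold change -0.29, SE 0.041, limma adjusted p = 0.0046). Oasl2 was 28.9, 28.1 and 31.8 FPKM with DMSO and 24.0, 24.7 and 26.9 FPKM with DASA-58 (log2 fold change -0.22, SE 0.058, limma adjusted p = 0.047). Oas1a has close copies, among them Oas1g, and how counting treated reads that match several copies is not given. Oas1g was lower too (log2 fold change -0.33, SE 0.030, limma adjusted p = 0.00079), as was Oas1b (-0.24, SE 0.050, limma adjusted p = 0.022). Oas1c overlapped between groups and did not pass the threshold (log2 fold change 0.016, 95% interval -0.28 to 0.31, limma adjusted p = 0.95). Eif2ak2 codes for PKR, the kinase that stops translation on sensing double-stranded RNA. It was 11.2, 11.2 and 13.5 FPKM with DMSO and 10.3, 10.8 and 10.6 FPKM with DASA-58 and did not pass the threshold although its groups did not overlap (log2 fold change -0.16, SE 0.069, limma adjusted p = 0.18).

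PARP9 and DTX3L form a complex of an ADP-ribosyltransferase-like protein and a ubiquitin ligase, and PARP12 and PARP14 are ADP-ribosyltransferases. Of these 4 genes, 1 passed the threshold, Parp9. Parp9 was 17.4, 16.5 and 18.4 FPKM with DMSO and 15.3, 15.1 and 15.2 FPKM with DASA-58 (log2 fold change -0.19, SE 0.044, limma adjusted p = 0.034). Dtx3l, its neighbour on the other strand, was 13.9, 15.2 and 15.3 FPKM with DMSO and 13.5, 13.9 and 13.1 FPKM with DASA-58 (log2 fold change -0.13, SE 0.046, limma adjusted p = 0.13). The pair share 458 exon bases on opposite strands, which is 9.40% of Parp9 and 8.0% of Dtx3l, and the use of strand in counting is not given in the sources used here. Parp14 was 24.4, 22.7 and 25.4 FPKM with DMSO and 21.7, 21.2 and 21.7 FPKM with DASA-58 and just missed the threshold (limma adjusted p = 0.059). Parp12, the most abundant of the 4, was 26.0, 25.1 and 26.6 FPKM with DMSO and 24.4, 23.8 and 26.4 FPKM with DASA-58, and its groups overlapped.

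Enzymes that act on nucleotides or RNA limit what a virus can copy. Cmpk2, a mitochondrial nucleotide kinase, was 7.74, 7.76 and 8.50 FPKM with DMSO and 6.11, 5.96 and 6.395 FPKM with DASA-58 (log2 fold change -0.33, SE 0.050, limma adjusted p = 0.0064). Samhd1, which breaks down deoxynucleotides, was 52.6, 53.7 and 56.2 FPKM with DMSO and 48.9, 47.5 and 49.2 FPKM with DASA-58 (log2 fold change -0.16, SE 0.034, limma adjusted p = 0.025). Both were lower in every DASA-58 library. Rsad2, the gene of viperin and the neighbour of Cmpk2 on chromosome 12, was 7.01, 6.13 and 6.93 FPKM with DMSO and 5.59, 5.91 and 5.91 FPKM with DASA-58 without overlap (log2 fold change -0.18, SE 0.057, limma adjusted p = 0.088). Isg20, an RNA exonuclease, had the lowest level of the 45 members, at 1.35, 0.941 and 1.68 FPKM with DMSO and 1.09, 1.51 and 1.13 FPKM with DASA-58. With 33 to 57 fragments a library with DMSO and 38 to 51 with DASA-58, its log2 fold change had an interval of -0.35 to 0.26, so a change of the size seen in other members was not detectable at this depth.

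Ifitm3, Lgals3bp and Bst2 had the highest levels of the 45 members. Ifitm3, which blocks the fusion of viruses with endosomes, was the most abundant member, at 592, 669 and 610 FPKM with DMSO and 485, 505 and 526 FPKM with DASA-58. The means were 624 ± 40.6 and 505 ± 20.7 FPKM (SD, n = 3), which is a log2 fold change of -0.30 (SE 0.050, limma adjusted p = 0.0092). Lgals3bp, a secreted glycoprotein, had very even libraries, at 271, 271 and 271 FPKM with DMSO and 234, 238 and 241 FPKM with DASA-58 (log2 fold change -0.19, SE 0.023, limma adjusted p = 0.0024). Rtp4, a chaperone of membrane receptors, was 54.9, 58.4 and 57.3 FPKM with DMSO and 41.6, 44.2 and 48.3 FPKM with DASA-58 (log2 fold change -0.34, SE 0.054, limma adjusted p = 0.0071). These 3 genes were lower without overlap between groups. Bst2, the gene of tetherin, which holds budding viruses at the cell surface, did not pass the threshold. It was 214, 255 and 228 FPKM with DMSO and 216, 223 and 238 FPKM with DASA-58, with overlapping groups and an interval of the log2 fold change of -0.19 to 0.11.

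Of the other 5 effectors, 3 were lower with DASA-58. Rnf213, a very large ubiquitin ligase, was 19.2, 18.3 and 19.4 FPKM with DMSO and 15.7, 15.98 and 16.5 FPKM with DASA-58 (log2 fold change -0.23, SE 0.038, limma adjusted p = 0.0094). Ifi44, an interferon-induced protein of the cytoplasm, was 2.40, 2.23 and 2.22 FPKM with DMSO and 1.66, 1.53 and 1.80 FPKM with DASA-58, at 72.9% of DMSO (log2 fold change -0.30, SE 0.068, limma adjusted p = 0.029). Xaf1, a partner of the apoptosis inhibitor XIAP, was 9.74, 9.17 and 9.15 FPKM with DMSO and 7.54, 7.55 and 8.60 FPKM with DASA-58 (log2 fold change -0.22, SE 0.057, limma adjusted p = 0.045). In all 3 the groups were apart. Ifi35 was apart as well, at 15.1, 13.4 and 15.1 FPKM with DMSO and 10.4, 12.4 and 12.9 FPKM with DASA-58, but missed the threshold (limma adjusted p = 0.071). Trim30a, a ubiquitin ligase that damps Toll-like receptor signalling, overlapped at 30.6, 31.2 and 34.1 FPKM with DMSO and 28.5, 28.9 and 30.9 FPKM with DASA-58 (limma adjusted p = 0.19).

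Set side by side, the 19 members that were not past the threshold differed in whether their groups overlapped. In 8 of them the groups did not overlap, with DASA-58 the lower (Usp18, Ifit2, Mx2, Eif2ak2, Parp14, Dtx3l, Rsad2 and Ifi35). The other 11 overlapped and held both receptor chains and both of the STAT2 and IRF9 genes, together with Herc6, Trim25, Ddx60, Parp12, Isg20, Bst2 and Trim30a. This split is not sharp, since Trim25 among the 11 and Eif2ak2 among the 8 had the same limma adjusted p of 0.18. A total of 5 members had an adjusted p from 0.04 to 0.05 and 5 others from 0.05 to 0.1, so the count of 26 is not a sharp boundary.

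Level and change are shown together in the plot of change against level. Mean levels with DMSO ran from 1.32 FPKM for Isg20 to 624 FPKM for Ifitm3, and lower members were found across nearly this whole range, from Ifi44 at 2.29 ± 0.10 FPKM (SD, n = 3) upward. On the log2(FPKM + 1) scale the change of low genes is understated. For Ifi44 the DASA-58 mean was 72.9% of the DMSO mean, close to the 71.3% of Ifit1, although their log2 fold changes were -0.30 and -0.43.

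**Figure D3:**
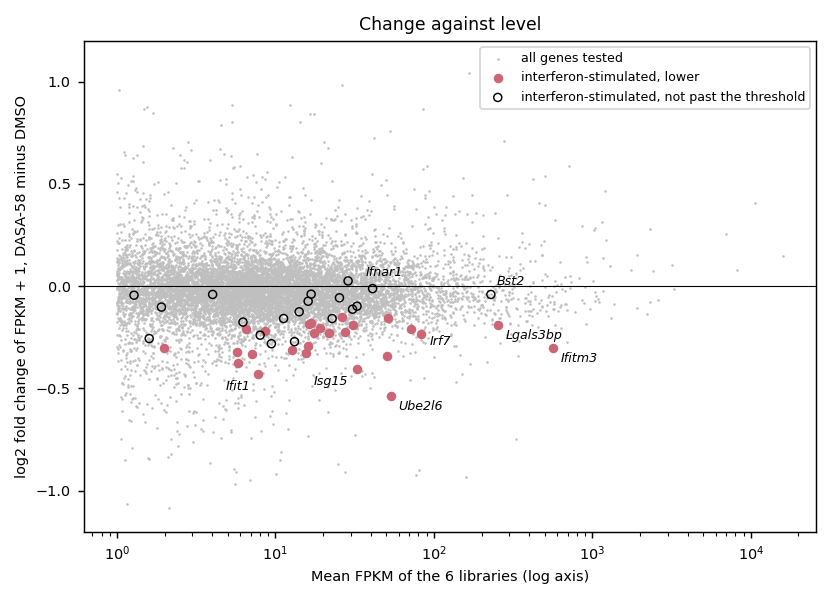
The log2 fold change of FPKM + 1 (DASA-58 minus DMSO) against the mean FPKM of the 6 libraries on a log axis, for all 10965 genes tested (grey), the 26 lower members (red) and the 19 members not past the threshold (open circles). With the values as deposited all members but Ifnar2 lie below 0, Ube2l6 is the lowest of them, and 3 genes beyond 1.2 in size fall outside the axis.

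Members lay on 14 chromosomes. On chromosome 5 all 5 members (Oas1a, Oas2, Oas3, Oasl1 and Oasl2) were lower, and on chromosome 2, where they lie far apart, all 5 members (Ube2l6, Ifih1, Zbp1, Znfx1 and Samhd1) were lower. Chromosome 16 held 8 members, of which Mx1, Parp9 and Rtp4 were lower, and chromosome 11 held 7, of which 5 were lower.

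The ligands and the pathway upstream of these genes were then examined. Of 18 type I interferon genes listed, Ifnb1 had a row and the other 17 were not analysed here. Ifnb1, the gene of interferon beta, had at most 2 fragments in a library and 0 in 4 of the 6, below the 3 fragments that a count of 0 allows, so a difference in it was not detectable at this depth. These limits cover counting error only.

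Of 30 genes of interferon induction and signalling, all tested, 1 was lower and 2 were higher with DASA-58, with a median log2 fold change of -0.03. Over all genes tested, 7.28% were lower and 4.24% were higher, so these counts are near the shares over all genes. Socs3, a feedback inhibitor of cytokine receptors, was the lower one, at 7.73, 6.95 and 6.90 FPKM with DMSO and 4.81, 4.51 and 4.21 FPKM with DASA-58 (log2 fold change -0.57, SE 0.061, limma adjusted p = 0.0013). Ikbke, a kinase that activates IRF3 and IRF7, was higher, at 14.5, 14.2 and 14.8 FPKM with DMSO and 16.6, 16.1 and 15.97 FPKM with DASA-58 (log2 fold change 0.15, SE 0.035, limma adjusted p = 0.033). Ifngr1, a receptor chain for interferon gamma, was higher as well, at 120, 124 and 121 FPKM with DMSO and 134, 130 and 134 FPKM with DASA-58 (log2 fold change 0.12, SE 0.027, limma adjusted p = 0.032). Without the filter on low values, without a trend in the variance or with the replicate number as a block, neither of the latter passed the threshold. With a library left out, 1 gene was higher without DMSO replicate 2 or 3, and 0 were higher without DMSO replicate 1 or any of the DASA-58 replicates.

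The other transcription factors of that list described here were not past the threshold. The log2 fold change was -0.06 for Irf3, 0.05 for Irf5, 0.11 for Irf8 and -0.03 for Stat3, with limma adjusted p of 0.30, 0.32, 0.17 and 0.67. Irf2, a repressor of interferon-stimulated genes, had an interval of -0.14 to 0.13, and Ifngr2, the other chain of the interferon gamma receptor, one of -0.08 to 0.03. The kinases behind the receptor, Jak1 and Tyk2, had intervals of -0.01 to 0.12 and -0.15 to 0.08.

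A wider list of 84 interferon-stimulated genes outside the 45 was described in the same way. Of the 82 with a row, 74 passed the filter, 17 were lower and 3 were higher, with a median log2 fold change of -0.06. The shares over all genes tested were 7.28% lower and 4.24% higher, so the count of higher genes is near its share. The largest decreases were in Ifi27l2a (log2 fold change -0.37), Slfn4 (-0.33), Ppa1 (-0.33), Oas1g (-0.33) and Ifit3b (-0.30), with limma adjusted p of 0.024, 0.012, 0.0056, 0.00079 and 0.019. Cd274, the gene of PD-L1, was lower too (log2 fold change -0.29, SE 0.045, limma adjusted p = 0.0067). Among the higher genes were Ms4a6d (log2 fold change 0.37, limma adjusted p = 0.00061) and Nampt, an enzyme of NAD synthesis (log2 fold change 0.34, limma adjusted p = 0.00095). Leaving out DMSO replicates 1, 2 and 3 in turn gave 11, 12 and 10 lower genes in this list, and leaving out DASA-58 replicates 1, 2 and 3 gave 7, 9 and 10. The difference between this list and the 45 members was not tested.

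Markers of other cell states moved with the same libraries and are given here beside the interferon-stimulated genes. All 9 tested osteoclast markers were lower with DASA-58 (median log2 fold change -0.87), and the list summed to 778 to 833 FPKM with DMSO and 449 to 467 FPKM with DASA-58. Of 7 neutrophil markers tested, 4 were lower (S100a8, S100a9, Camp and Ngp), and their list summed to 174 to 177 FPKM with DMSO and 137 to 143 FPKM with DASA-58. Of the 10 macrophage markers, 3 were higher (Adgre1, Cd68 and Mertk) and 2 were lower (Cd14 and Spi1). The shares over all genes tested were 7.28% lower and 4.24% higher. The part of these cell states in the change of the interferon-stimulated genes was not tested. In bulk RNA, fewer cells of a type and less RNA per cell cannot be told apart.

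Plasmacytoid dendritic cells are the main producers of type I interferon. Of their 8 markers, 6 had a row and 3 passed the filter, and the list summed to 6.26 to 6.59 FPKM with DMSO and 4.88 to 5.88 FPKM with DASA-58. Spib was lower among them (log2 fold change -0.36, SE 0.081, limma adjusted p = 0.03), whereas the defining marker Siglech was at 0 in 5 of the 6 libraries and at 0.016 FPKM in the other. All 6 markers of conventional dendritic cells with a row were below the filter, summing to 1.63 to 1.68 FPKM with DMSO and 1.49 to 1.58 FPKM with DASA-58. Tested markers numbered 1 for T and NK cells (Cd4), 1 for B cells (Cd79b) and 3 for stromal cells, and none of them passed the threshold. Cd4 was 5.27 to 5.75 FPKM with DMSO and 5.24 to 5.73 FPKM with DASA-58, most of the T and NK sum given next. The T and NK list summed to 5.98 to 7.01 FPKM with DMSO and 5.98 to 6.62 FPKM with DASA-58, the B cell list to 1.80 to 2.13 and 2.19 to 2.45 FPKM, and the stromal list to 35.2 to 37.5 and 35.6 to 36.8 FPKM.

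**Figure D4:**
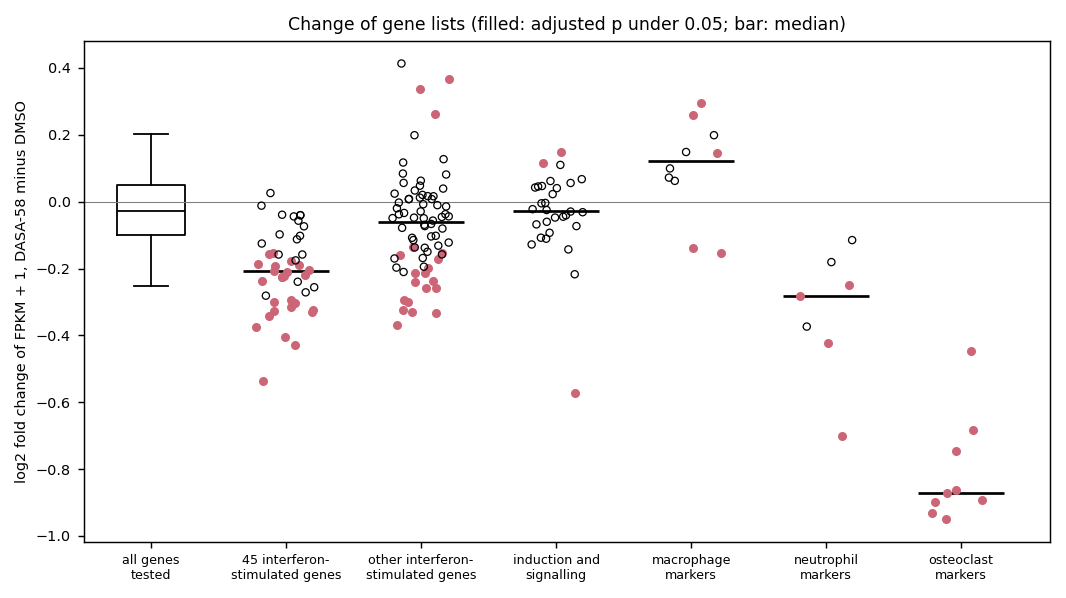
The log2 fold change of FPKM + 1 (DASA-58 minus DMSO) of each tested gene by list, with filled points past an adjusted p under 0.05 and bars at the median; the box for all genes tested shows the median and quartiles with whiskers at the 5th and 95th percentiles. The 45 members centre on -0.21, the other interferon-stimulated genes on -0.06, induction and signalling genes on -0.03 and osteoclast markers on -0.87.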

How the data were processed

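The authors deposited FPKM values for 23504 genes in 6 libraries, and 0 value columns were left unmapped. FPKM are fragments divided by gene length and by the fragments of the library, and the deposited table shows no further scaling between libraries. The submitters' processing notes name HISAT2 2.1.0, HTSeq 0.6.0 and the genome build mm8, but the gene lengths behind the values matched GENCODE mouse release 21, which is built on GRCm38. The annotation and the use of strand are not given in the sources used here. With these lengths, 21368 genes (90.9%) held whole fragments in every library to within 0.02 fragments, and these gave the depths reported. Of the gene identifiers, 23455 had a symbol and 49 had none.

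The log2(FPKM + 1) values of both groups entered a single limma fit (version 3.58.1, R 4.3.3) with a variance trend in eBayes and no replicate block. Genes averaging 1 FPKM or more were kept, and the p-values of these 10965 genes were adjusted together by the Benjamini-Hochberg method. Fold changes on this scale understate the change of low genes. Exact permutation of 3 libraries against 3 reaches a smallest p of 0.1 and was not used. The 45 members, the other lists and the tests were chosen with earlier results of these data known. All 45 members are named, with values in every library for each lower member and for the member of each role with the highest level or the largest change. From the other lists, genes past the threshold are named, or the 6 with the largest change where more passed, with the receptors and the STAT and IRF genes. Some genes of these lists are not reported here. Cd274, Ifit3b, Oas1b, Oas1c and single genes of the cell type marker lists were named after their values were seen. Alternatives were other pseudocounts, filters and scalings, no trend, the replicate number as a block, voom weights on recovered fragments and each library left out in turn. On simulated data for this comparison, 87 of 111 genes changed by 0.5 on the log2 scale (78.4%) and 84 of 87 changed by 1 (96.6%) were recovered among 10958 genes, with 8 false calls. The simulation gave all genes the same dispersion, and changes under 0.5 were not simulated. All lower members except Ube2l6 changed by less than 0.5, so these rates do not give the recovery at their sizes. Promoter sequences came from the RefSeq table of GRCm38.p6, in which 9 members were not matched. Tables were computed in Python 3.11.15 (pandas 2.3.3 with numpy 2.4.6), and plots were drawn with matplotlib 3.10.9.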

Additional observations from a re-analysis of the deposited data

How the results depend on the processing

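Of 712 values of single members under 16 alternatives, 583 kept their direction and their side of the threshold, 106 fell short of it, 16 newly passed it and 7 changed sign. All 26 lower members kept a negative value under every alternative, and 11 of them were called under every one. The count of lower members stayed within 1.5 times of 26 except with no filter on low values (12, with 23504 genes tested) and without DMSO replicate 1 or 3 or DASA-58 replicate 1 or 2 (14 to 16, of 14 to 22 over all 6 libraries left out in turn). Higher members numbered 0 throughout. The replicate numbers did not pair the libraries (correlations of same-numbered deviations -0.02 to 0.02). A replicate block left 20 lower members, and lower calls over all genes went from 7.28% to 5.28% with it. The median log2 fold change of the members was -0.16 at a pseudocount of 5, and -0.24 to -0.18 with a library left out. Members without overlap numbered 34 to 37 with a library left out. Groups separate more easily with fewer libraries, and the share over all genes in these settings is not given here. The signs that changed were those of uncalled genes. Ifnar1 was at 0.012 with quantile normalization, 0.017 with median centring and 0.015 with a trimmed mean of log ratios. With a library left out, Ddx60 ranged from -0.070 to 0.0028 (positive without DASA-58 replicate 2), Isg20 from -0.17 to 0.066 (positive without DMSO replicate 3, and at 0.0058 without DASA-58 replicate 1) and Bst2 from -0.10 to 0.028 (positive without DMSO replicate 2). In the signalling list, 2 genes were lower with voom weights, and 0 were higher with no filter, no trend or a replicate block (0 to 1 with a library left out). In the wider list, 10 genes were lower with no filter and 7 to 12 with a library left out, and 5 were higher with median centring, a trimmed mean of log ratios or voom weights (2 to 4 with a library left out). Over all genes, 1.58% were lower with no filter. The share higher was 5.47% with median centring, 5.4% with a trimmed mean of log ratios and 5.85% with voom weights. The cause of these differences was not tested. Isg20 had 33 to 57 fragments a library, so depth limits its value.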
